A study of Homo sapiens with 5 samples.

Results

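AHR codes for the aryl hydrocarbon receptor, and CYP1B1 and TIPARP are among the best known genes that this receptor switches on. These 3 genes, of 4202 in the table, were chosen by their gene symbols with earlier results of the same libraries known, in which CYP1B1 was already among the lowest genes with CGI-1746. The differences of the 3 genes are therefore given as descriptions. The cells were MDA-MB-231, an established human breast cancer line, treated for 4 h. The conditions were mock, CGI-1746 (a BTK inhibitor that the study's title also names as an allosteric inhibitor of the proteasome), LU-102 (labelled as an inhibitor), both agents in combination, and bortezomib, a proteasome inhibitor in clinical use, as the control for proteasome inhibition. Each condition has 1 library of total RNA, so no value has a replicate error and no difference between conditions was tested. No dose is given in the sources used here, and all libraries come from the same line.

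The aryl hydrocarbon receptor is a transcription factor that is kept in the cytoplasm by a complex with the chaperone HSP90 and its partner p23 (gene PTGES3). A ligand sends it to the nucleus, where it pairs with ARNT and binds a short DNA element, the xenobiotic response element. Its targets include CYP1B1, a cytochrome P450 that oxidizes steroids and polycyclic hydrocarbons, and TIPARP, an ADP-ribosyltransferase that modifies the receptor and limits its activity. The receptor protein is degraded by the proteasome after activation.

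CYP1B1 lies on the minus strand of chromosome 2 (38067509 to 38076151), TIPARP on the plus strand of chromosome 3 (156674590 to 156706770) and AHR on the plus strand of chromosome 7 (17298652 to 17346147), by RefSeq on GRCh38.p14. GENCODE 29 places the antisense gene CYP1B1-AS1 over CYP1B1, TIPARP-AS1 over the start of TIPARP, and both an antisense gene, AC073332.1, and a same-strand gene, AC019117.2, over AHR. Whether the counting used strand is not given in the sources used here, so reads of these overlapping genes cannot be told apart from those of the 3 genes.

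The RefSeq promoter table held 3 start sites of TIPARP and 1 of AHR. Windows of 250 bases before each start site were searched on both strands for the core of the xenobiotic response element, GCGTG, whose other strand reads CACGC. They were also searched for the GC box, GGGCGG or CCGCCC, and for the E box, CACGTG. The window of the first TIPARP start site held 2 matches to the core and 2 GC boxes. Those of the other 2 start sites held no core, and 1 of them held 1 GC box. The AHR window held no core and 4 GC boxes, of which the last 2 share 1 base. It also held 1 E box, 165 to 160 bases before the start site, and the TIPARP windows held none. Of 35116 promoter windows of this length, 32.2% held the core and 42.6% a GC box, so neither is rare. An E box was in 6.34%. The TIPARP stretches are shown because the gene is a direct target of the receptor, and the AHR stretch because this gene alone of the 3 was higher with bortezomib as deposited. Each is written 5′ to 3′ on the gene's strand, and by GENCODE 29, which starts both genes further upstream, the TIPARP stretches lie in the first exon of a longer transcript. Capitals mark the core, as CACGC, in the TIPARP stretches (chr3:156674370-156674398 and chr3:156674436-156674464) and GC boxes in the AHR stretch (chr7:17298402-17298621). The E box in the AHR stretch is left in small letters.

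TIPARP, core 208 to 204 bases before the start site: cgcgagaaaggaCACGCcccctcgcggga

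TIPARP, core 142 to 138 bases before the start site: cgaacgaacgcgCACGCgcgcgcaggggg

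AHR, 250 to 31 bases before the start site: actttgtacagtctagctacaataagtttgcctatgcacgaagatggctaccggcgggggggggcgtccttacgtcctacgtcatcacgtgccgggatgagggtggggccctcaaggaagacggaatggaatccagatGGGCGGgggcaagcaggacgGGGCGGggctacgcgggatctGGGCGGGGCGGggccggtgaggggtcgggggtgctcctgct

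The table gives a level for each gene and library, a normalized signal. The smallest sum of the 5 levels of a gene was 5.04, so genes with less signal are absent. Ranks and shares among all genes refer to the genes in the table only. Levels of short RNA genes times their length lay within 0.1 of a whole multiple of 0.5 read for 27 of 28 such genes in mock and 19 of 20 for bortezomib, so the signal was taken as per length and set side by side between genes. Taking this step as 0.5 read gives what 1 read adds, and from it the reads behind a level can be estimated if a transcript length is assumed. That the step is 0.5 read and not 1 read was also assumed. With 1 read per step the estimated reads would be more and the intervals below narrower. With the longest coding transcript of GENCODE 29 (5250 bases for CYP1B1, 4181 for TIPARP and 6958 for AHR) the mock levels rested on about 946 reads of CYP1B1, 135 of TIPARP and 244 of AHR. With the shortest one of its basic set they rested on about 267, 69 and 220 reads. Intervals below are exact Clopper-Pearson intervals at 95% on the reads of the longest transcript and cover counting error only, not variation between cultures.

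If the levels are RPKM, which no source used here states, the value of 1 read puts the depth of the libraries between 16850200 and 18603800 reads. Of the mesenchymal markers of the line, VIM had a level of 92.1 in mock and 18.3 for bortezomib. In the 3 libraries that received CGI-1746, LU-102 or both it had 82.1 to 90.3. CD44, AXL, CAV1, LGALS1 and S100A4 had mock levels from 4.91 (CD44) to 48.4 (LGALS1), and all were lower for bortezomib. LGALS1 was above mock in those 3 libraries, with 62.7 for the combination. KRT19, a luminal keratin that the line should have little of, had 12.1 in mock. It had at least 11.9 in those 3 libraries and 3.79 for bortezomib. CDH1, EPCAM, ESR1, PGR and ERBB2, which the line should also have little of, have no entry in the deposited table. The bortezomib library stood apart: the median log2 ratio to mock over 4189 genes was -0.98 as deposited, -0.44 with median-of-ratios scaling and -0.04 when the summed level of protein-coding genes was made equal. In bulk RNA, fewer cells that express a gene and less RNA in each cell cannot be told apart.

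CYP1B1, the target enzyme, was the most abundant of the 3 genes in every library. Its level was 10.7 for mock, 4.76 for CGI-1746, 8.64 for LU-102, 4.39 for the combination and 9.31 for bortezomib. The 2 libraries that received CGI-1746 were the low ones, at 44.5% and 41.1% of mock, while LU-102 had 80.8% and bortezomib 87.1%. Ranked within its own library among the genes in the table, CYP1B1 exceeded 85.6% of them in mock. It exceeded 67.1% and 63.1% in the libraries that received CGI-1746 alone or in combination. For LU-102 it exceeded 82.7% and for bortezomib 93.3%, so by this rank bortezomib was above mock. In descending order of level the libraries were mock, bortezomib, LU-102, CGI-1746 and the combination. Between bortezomib and LU-102 (ratio of LU-102 to bortezomib 0.928, interval 0.842 to 1.02) and between CGI-1746 and the combination (ratio of the combination to CGI-1746 0.922, interval 0.802 to 1.06) the neighbours did not differ beyond counting error. The step from LU-102 to CGI-1746 was 0.551 (0.489 to 0.621). Mock and bortezomib differed by 0.871 (0.795 to 0.955), which held 1 when the shortest transcript was assumed (0.729 to 1.03).

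TIPARP, the ADP-ribosyltransferase that feeds back on the receptor, had a level of 1.92 for mock, 1.41 for CGI-1746, 1.54 for LU-102, 1.35 for the combination and 0.449 for bortezomib. By level, mock was highest and bortezomib lowest, at 23.4% of mock, and the other 3 libraries lay together at 70.5% to 80.2%. Ranked within each library as above, TIPARP exceeded 27.5% of the genes in the table in mock and 9.54% for CGI-1746. It exceeded 17.5% for LU-102, 5.24% for the combination and 15.9% for bortezomib, so by rank the combination was lowest. Of the neighbours in the order of level, only the combination and bortezomib differed beyond counting error, with 3.01-fold more in the combination (2.02 to 4.56).

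AHR, the receptor, had a level of 2.08 for mock, 1.71 for CGI-1746, 1.74 for LU-102, 1.47 for the combination and 3.15 for bortezomib. Here the order was another one: bortezomib was highest, at 151% of mock, and the combination lowest, at 70.5%. Ranked in the same way, AHR exceeded 32.7% of the genes in the table in mock and 81.3% in the bortezomib library. Bortezomib and mock differed beyond counting error (ratio 1.51, interval 1.29 to 1.78), whereas mock and LU-102 (ratio of LU-102 to mock 0.836, interval 0.692 to 1.01), LU-102 and CGI-1746, and CGI-1746 and the combination did not.

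**Figure D1:**
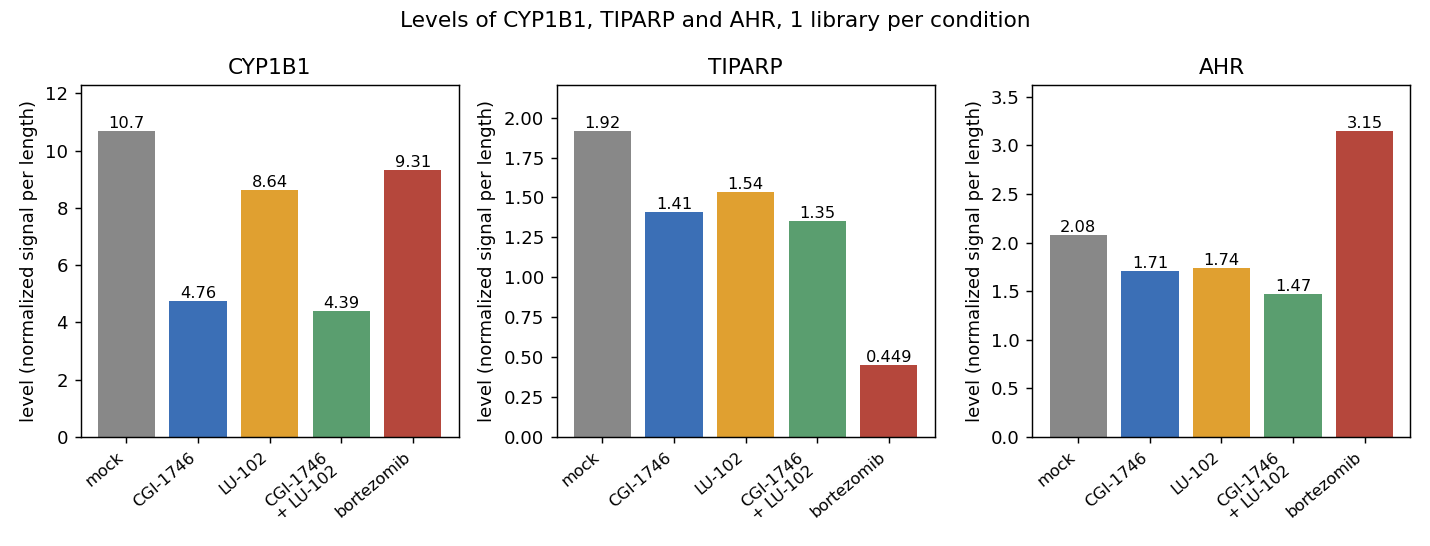
Level of each gene (normalized signal per gene length, axis from 0) in the 5 libraries, 1 bar per library with its value on top and no error bar, since there are no replicates. CYP1B1 is low in both libraries with CGI-1746 (4.76 and 4.39), TIPARP is lowest with bortezomib (0.449) and AHR is highest with bortezomib (3.15).

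Ratios to mock were taken on log2(level + 1), which understates the difference of genes at low levels such as TIPARP and AHR. A gene was counted when this ratio was 2-fold or more, provided that its level reached 1 in one of the compared libraries. The comparisons with mock share the mock library, so likeness between them is in part set by it.

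CGI-1746 against mock compares the BTK inhibitor alone with no agent. CYP1B1 was lower, with a log2 ratio of -1.02 and a plain ratio of 0.445. Its interval, 0.396 to 0.49997, ended at 2-fold, and with the shortest transcript it was 0.356 to 0.555, on both sides of 2-fold. Of the 3 genes it alone was counted as lower, where 0.0478% of the 4186 genes compared were. It had the lowest ratio of 3903 protein-coding genes and the second lowest of all. Only SNORA81, a small nucleolar RNA that guides modification of ribosomal RNA, was lower, at -1.45, and the next above were RNU6ATAC of the minor spliceosome at -0.98, KTI12, an Elongator-associated factor, at -0.78 and SNORA22C at -0.69. The 200 genes nearest to CYP1B1 in level had ratios from -0.39 to 0.28. The call is near the threshold: with median-of-ratios scaling the ratio was -0.97, with equal summed coding levels -0.98 and with a pseudocount of 5 it was -0.69.

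TIPARP with CGI-1746 had a log2 ratio of -0.28, a plain ratio of 0.735 (0.561 to 0.958), and was the 51st lowest protein-coding gene. AHR had -0.19, a plain ratio of 0.820 (0.678 to 0.993). Of the 200 genes nearest in level, 3 lay below TIPARP and 8 below AHR, the all-gene median being -0.02. Both intervals held 1 when the shortest transcript was assumed (0.511 to 1.09 for TIPARP and 0.670 to 1.003 for AHR).

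With LU-102 against mock all 3 genes were slightly lower and none reached 2-fold, which 0.0715% of the 4193 genes compared did. CYP1B1 had a log2 ratio of -0.28, a plain ratio of 0.808 (0.734 to 0.890), and 10 of the 200 genes nearest in level were lower. TIPARP had -0.20, a plain ratio of 0.802 (0.619 to 1.04), and AHR -0.17, and both intervals held 1. The all-gene median in this comparison was -0.06. CYP1B1 was the 98th lowest of 3907 protein-coding genes here. Next to it in order were RPS20 and RPS25 of the ribosome, the secretory pathway genes TMED5, SFT2D3 and SPCS1, and PAFAH1B2, all at -0.28.

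The combination against mock had CYP1B1 at a log2 ratio of -1.12, a plain ratio of 0.411 (0.364 to 0.463), the lowest of all 4189 genes compared. Of the 3 genes it was again the only one counted as lower, beside 0.0477% of all genes. The genes next above it were SCARNA1, a small Cajal body RNA, at -1.04, SNORA81 at -0.94 and C15orf54 at -0.73. None of the 200 genes nearest to CYP1B1 in level was below -0.41. With a pseudocount of 5 the ratio was -0.74, under 2-fold.

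TIPARP and AHR were lower by similar amounts in the combination, at log2 ratios of -0.31 and -0.32, plain ratios of 0.705 for both, with intervals of 0.537 to 0.923 for TIPARP and 0.579 to 0.862 for AHR. Of the 200 genes nearest in level, 4 lay below TIPARP and 4 below AHR. The interval of TIPARP held 1 with the shortest transcript (0.478 to 1.03) and that of AHR did not (0.573 to 0.872).

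Bortezomib against mock set the 3 genes apart from each other. AHR was higher, with a log2 ratio of 0.43, CYP1B1 was close to its mock level, at -0.18, and TIPARP was lower, at -1.01, a plain ratio of 0.234 (0.157 to 0.343). Only TIPARP was counted as lower, which 48.1% of the 4189 genes compared were. With this pseudocount and the levels as deposited, its ratio lies near their median of -0.98. AHR lay 1.41 above that median, as the 82nd highest of 3903 protein-coding genes, and 7 of the 200 genes nearest in level were higher. CYP1B1 lay 0.80 above the median, with 24 of its 200 nearest genes higher. Next to it in order were RPS10P7, SLC31A1, a copper transporter, ZBTB7A, a transcriptional repressor, LOC100507507, NOP16 and C11orf58, all at -0.18.

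The bortezomib values depend on how the libraries are scaled. As deposited, 1.38% of all genes were 2-fold higher beside the 48.1% lower. With median-of-ratios scaling these shares were 4.97% and 17.4%, and with equal summed coding levels 10.98% and 7.21%. AHR was above 0 under every setting tried, from 0.20 with a pseudocount of 5 to 1.68 with equal summed coding levels. CYP1B1 changed sign, from -0.18 as deposited to 0.71 with median-of-ratios scaling and 1.28 with equal summed coding levels. TIPARP stayed below 0 but was at -0.60 and -0.29 under these 2 scalings and at -2.09 with no pseudocount. The all-gene medians were then -0.44, -0.04 and -1.63, each above TIPARP. With a pseudocount of 5, TIPARP was at -0.34, slightly above the median of -0.38. The lower levels of VIM and KRT19 with bortezomib move with this comparison, and their part in the values of the 3 genes was not tested.

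**Figure D2:**
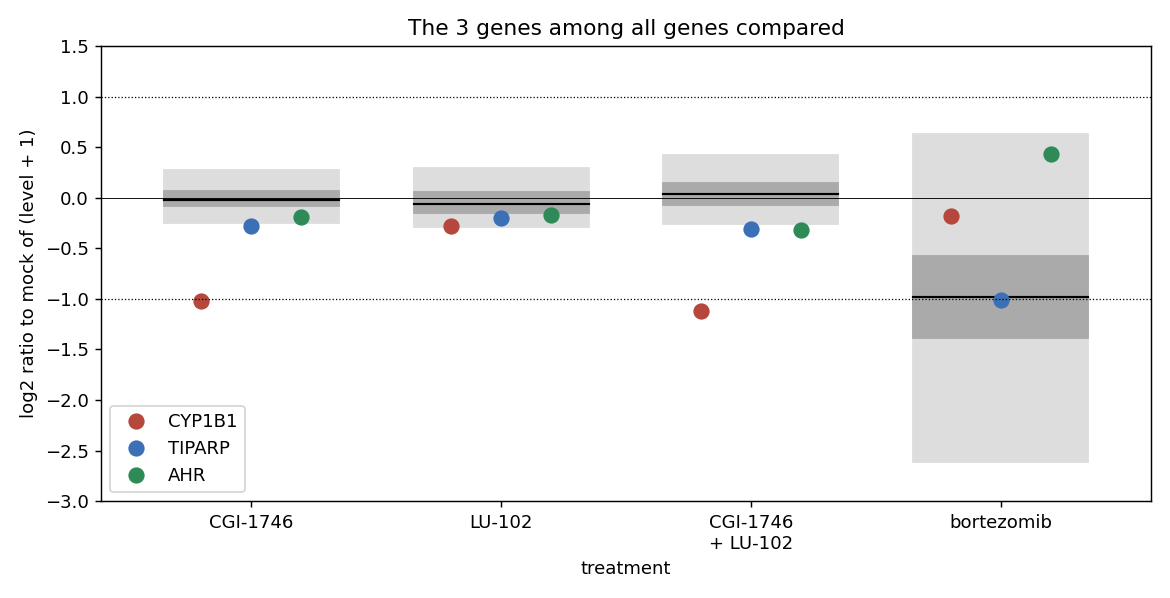
Log2 ratio to mock of (level + 1) for CYP1B1, TIPARP and AHR (points) under each treatment, over all genes compared (light bar, central 95%; dark bar, central 50%; black line, median; dotted lines, 2-fold). CYP1B1 lies far under the light bar with CGI-1746 (-1.02) and the combination (-1.12), and AHR stands at 0.43 with bortezomib where the median of all genes is -0.98.

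**Figure D3:**
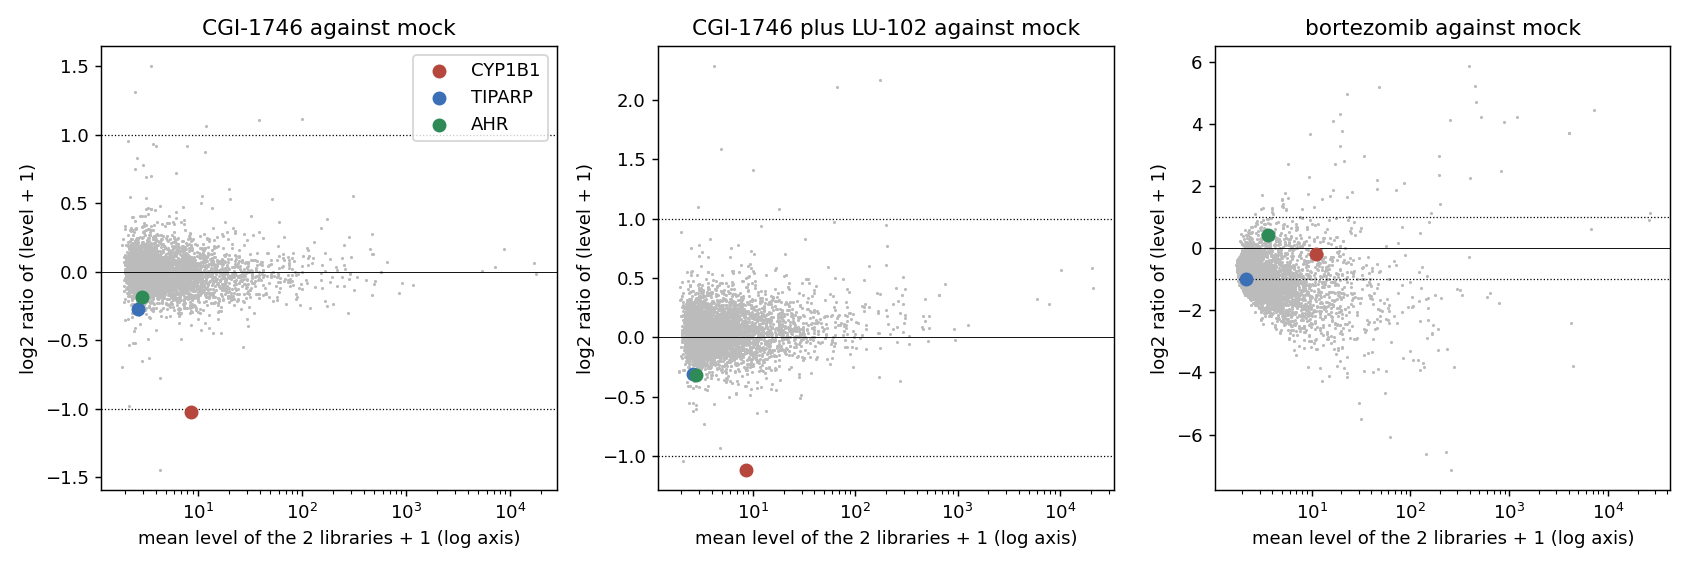
Log2 ratio of (level + 1) against the mean level of the 2 libraries plus 1 (log axis) for every gene compared (grey points), with the 3 genes in colour and dotted lines at 2-fold, for CGI-1746, the combination and bortezomib against mock. In the first 2 panels CYP1B1 lies alone below the other genes of its level, and TIPARP and AHR lie at the lower edge of theirs.

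Ratios between the genes within a library do not depend on how libraries are scaled. The level of CYP1B1 was 5.14 times that of AHR in mock and 4.96 times in the LU-102 library. It was 2.79 times for CGI-1746, 2.99 times for the combination and 2.96 times for bortezomib. As deposited, the bortezomib library had more AHR than mock. The libraries that received CGI-1746 had less CYP1B1, and AHR at 82.0% (CGI-1746) and 70.5% (the combination) of mock. Unlike the ratios within a library, such differences from mock depend on scaling. The log2 ratio of CYP1B1 with bortezomib was -0.18 as deposited, 0.71 with median-of-ratios scaling and 1.28 with equal summed coding levels. The level of TIPARP was 0.921 times that of AHR in mock, 0.826 times for CGI-1746, 0.883 times for LU-102 and 0.920 times for the combination, and 0.143 times for bortezomib. The bortezomib library stood apart from the other 4 in this ratio.

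The combination was also set against each single agent. Against LU-102 alone, so with CGI-1746 as the added agent, CYP1B1 had a log2 ratio of -0.84, the lowest of 4193 genes, a plain ratio of 0.508 (0.449 to 0.575). Against CGI-1746 alone it had -0.10, with 16 of the 200 genes nearest in level lower. TIPARP had -0.11 and -0.04 in these comparisons and AHR -0.15 and -0.13, with intervals of the plain ratios that all held 1. None of the 3 genes reached 2-fold, which 0.143% of all genes did in the first comparison and 0.0954% in the second.

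Set directly against LU-102, CGI-1746 had CYP1B1 at -0.74, the lowest of 3907 protein-coding genes, with TIPARP at -0.07 and AHR at -0.02. None of the 3 was past 2-fold, which 0.0954% of all genes were. The plain ratio of CYP1B1 was 0.551 (0.489 to 0.621), that of TIPARP 0.917 (0.690 to 1.21) and that of AHR 0.981 (0.804 to 1.197). For TIPARP and AHR the intervals leave room for a difference in either direction.

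Departure from additivity, the log2 value of the combination less both single agents plus mock, was 0.18 for CYP1B1, 0.17 for TIPARP and 0.04 for AHR, against a median of 0.10 over 4197 genes. None reached 1 log2 unit, which 0.143% of all genes did. Of the 200 genes nearest in level, 70 lay above CYP1B1, 59 above TIPARP and 126 above AHR, so each was inside the range of its neighbours. With median-of-ratios scaling the values were 0.04, 0.06 and -0.07, the last with the opposite sign.

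Against bortezomib, the proteasome inhibitor control, LU-102 had CYP1B1 at -0.10, TIPARP at 0.81 and AHR at -0.60, and the combination had -0.94, 0.70 and -0.75. The all-gene medians were 0.91 and 0.99, so CYP1B1 and AHR were low relative to most genes in both comparisons, and TIPARP was nearer the median. On log2(level + 1) none of the 3 genes was past 2-fold in either, where 44.4% and 50.6% of all genes were. The plain ratios of LU-102 to bortezomib were 0.928 for CYP1B1, 3.42 for TIPARP and 0.552 for AHR. Those of the combination were 0.471, 3.01 and 0.466. As plain ratios, TIPARP was thus past 2-fold in both comparisons, and CYP1B1 and AHR with the combination. With median-of-ratios scaling the log2 ratios were -1.32 and -1.54 for AHR and -0.96 and -1.89 for CYP1B1. With equal summed coding levels TIPARP was at 0.12 and -0.05, the latter with the opposite sign.

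Partners and other targets of the receptor were described from lists drawn up with earlier results of these data known. Of the 15 genes described as the receptor and its partners, 4 besides AHR were measured: HSP90AA1, HSP90AB1, PTGES3 and MED1, a Mediator subunit. None of the 4 was 2-fold different with CGI-1746, LU-102 or the combination, and their medians were 0.01, -0.14 and 0.11, beside -0.02, -0.06 and 0.03 for all genes. The median of 0.11 was 0.01 with either scaling. HSP90AA1, the stress-inducible HSP90 gene, had 0.23, -0.19 and 0.49, at levels of 26.7 in mock and 37.9 with the combination. PTGES3 had -0.13, -0.18 and 0.01, the last being -0.08 with either scaling. Against mock, bortezomib had all 4 counted as lower, beside 48.1% of all genes. With median-of-ratios scaling 2 were counted, HSP90AB1 and MED1, beside 17.4% of all genes, and all 4 were still below 0 where AHR was above. With equal summed coding levels only MED1 was counted, at -1.15, beside 7.21% of all genes, and HSP90AA1 (0.06) was above 0.

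Of 28 other target genes listed, 9 were measured, and none was 2-fold different in the 3 comparisons without bortezomib. Their median was 0.03 with CGI-1746, where 5 lay above 0 and 4 below, -0.08 with LU-102, and 0.03 over the 8 compared with the combination, which was -0.06 with either scaling. NQO1, a quinone reductase that is also a target of NRF2, had a level of 6.21 for mock, 6.15 for CGI-1746, 5.52 for LU-102, 6.46 for the combination and 1.43 for bortezomib. The libraries that received CGI-1746 were not low for NQO1. CDKN1B, a cyclin-dependent kinase inhibitor, was the lowest with the combination at -0.34, and MYC the highest with CGI-1746 at 0.18. With bortezomib 5 of the 9 were counted as lower, where 48.1% of all genes were, and IL6, a cytokine, was the only one above 0, at 0.21. With median-of-ratios scaling none was counted, where 17.4% of all genes were lower and 4.97% higher. IL6, MYC and SLC3A2, a subunit of amino acid transporters, were then above 0. With equal summed coding levels these 3 were counted as higher, where 10.98% of all genes were, at 1.198 for IL6, 1.21 for MYC and 1.31 for SLC3A2. CYP1A1, AHRR and ARNT have no entry in the deposited table, so they could not be compared.

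**Figure D4:**
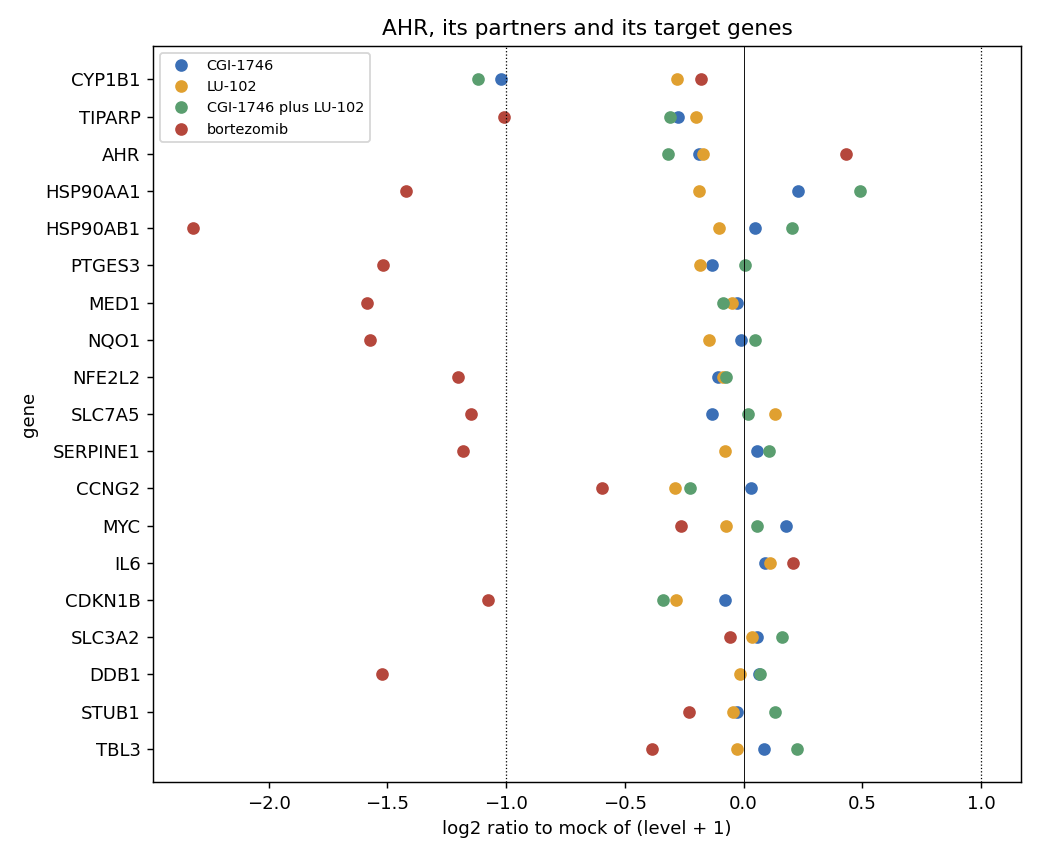
Log2 ratio to mock of (level + 1) for CYP1B1, TIPARP, AHR, 4 partners, 9 other target genes and 3 genes linked to degradation of the receptor (rows), 1 point per treatment, with dotted lines at 2-fold; IL6 has no point for the combination because its level was under 1 in both libraries. CYP1B1 is the only gene shown past 2-fold with CGI-1746 or the combination, and AHR (0.43) and IL6 (0.21) are the only ones above 0 with bortezomib as deposited, while with median-of-ratios scaling CYP1B1 (0.71), MYC, SLC3A2, STUB1 and TBL3 are above 0 too.

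The families of the 3 genes were thinly measured. Besides CYP1B1, CYP51A1, the sterol demethylase of cholesterol synthesis, was the only cytochrome P450 analysed, with log2 ratios to mock of -0.05 for CGI-1746, -0.20 for LU-102, -0.07 for the combination and -0.26 for bortezomib, the last being 0.59 with median-of-ratios scaling. Of the electron donors, CYB5R1 had -0.05 and 0.21 with CGI-1746 and the combination. Among 20 genes of the PARP family and its erasers 4 were measured, TIPARP included. ZC3HAV1, the antiviral zinc finger protein PARP13, was above 0 where TIPARP was below with CGI-1746 (0.34) and the combination (0.40). With LU-102 (-0.01) and bortezomib (-0.93) it was below 0 as TIPARP was, the first value being 0.01 with either scaling. With CGI-1746 and the combination PARP1, the DNA damage sensor, had -0.05 and -0.03. ADPRHL2, a hydrolase that removes ADP-ribose, had 0.20 and 0.21 there. HIF1A, the hypoxia factor, was the only other measured gene of the PAS family of AHR, at -0.07, -0.26, -0.17 and -1.47 in the order CGI-1746, LU-102, combination and bortezomib, and its bortezomib value was below 0 with both scalings. STUB1, DDB1 and TBL3, linked to degradation of the receptor protein, lay between -0.05 and 0.22 without bortezomib.

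Genes with the most similar pattern were found by the Euclidean distance between their 4 log2 ratios to mock and those of each of the 3 genes, among 2118 genes whose mock level was 3 or more. For CYP1B1 the 5 nearest were SNORA81 at a distance of 0.65, IL11, a cytokine, at 0.94, SNHG3, a host RNA of small nucleolar RNAs, at 1.08, CEBPD, a transcription factor, at 1.09 and FZD7, a Wnt receptor, at 1.14. These distances are large, so no gene followed CYP1B1 closely. For comparison, the median distance over the 2118 genes was 1.96.

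TIPARP had close neighbours, led by CHRAC1, a subunit of a chromatin remodeller, at 0.11, HBEGF, a ligand of the EGF receptor, at 0.12, and OTUD4, a deubiquitinase, at 0.13, followed by C16orf91 and PIGW at 0.15 and 0.16. The median distance to TIPARP was 0.75. Nearest to AHR were DCAF16, a substrate receptor of a ubiquitin ligase, at 0.27 and TMEM158, ZNHIT2, IER5, an immediate early gene, and THBD, thrombomodulin, between 0.33 and 0.34, with a median of 1.83 over all. All 5 were below mock in the libraries that received CGI-1746, LU-102 or both, and above it for bortezomib, as deposited. Their choice by these same ratios favours such likeness. The choice of neighbours is not firm: without bortezomib in the distance 1 of the 5 was shared for CYP1B1, 1 for TIPARP and 0 for AHR, and with a pseudocount of 5 the shared numbers were 4, 0 and 3.

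**Figure D5:**
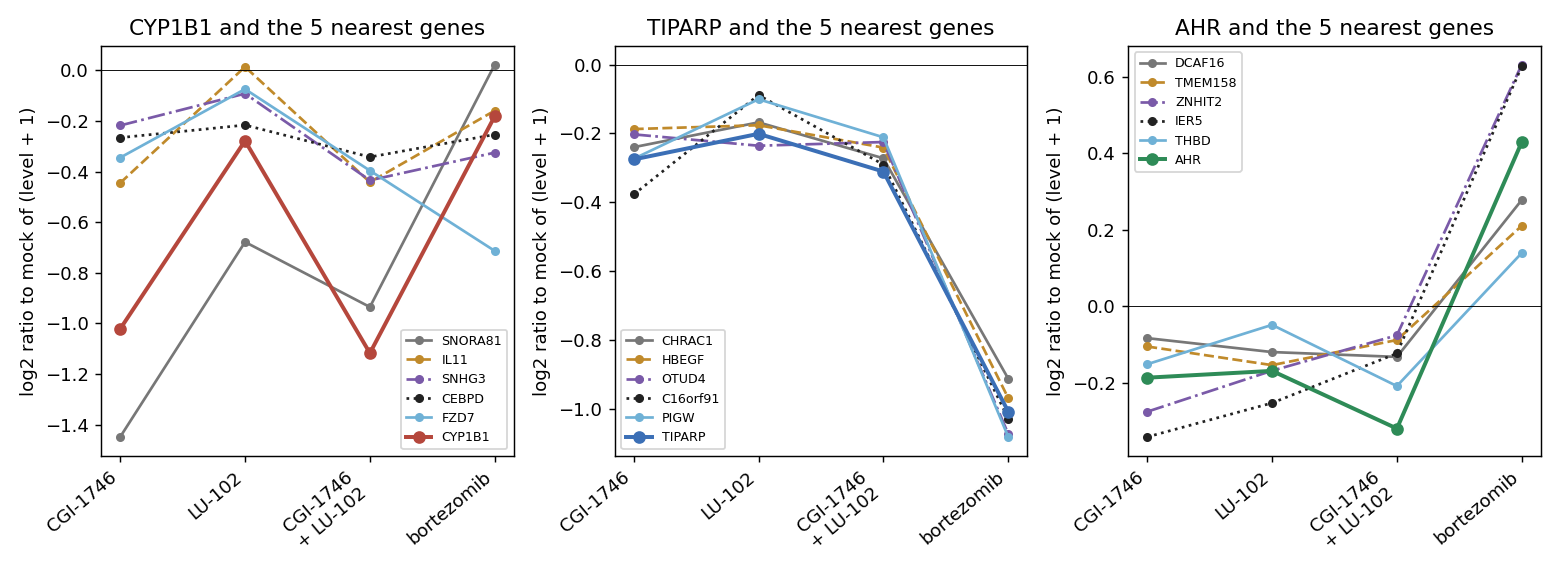
Log2 ratio to mock of (level + 1) in the 4 treatments (1 library each) for each of the 3 genes (thick coloured line) and the 5 genes nearest to it by Euclidean distance (thin lines). CYP1B1 has no near match at its 2 low points (-1.02 and -1.12), the genes near TIPARP end between -0.91 and -1.08 with bortezomib, and those near AHR all end above 0 with bortezomib. The nearest genes were chosen on the ratios shown.

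The authors' deposited table gives p-values of 0.142 and 0.116 for CYP1B1 with CGI-1746 and with the combination against mock, and an FDR of 0.99997 for the first. Its test is not given in the sources used here, and with 1 library per condition it cannot include variation between cultures.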

How the data were processed

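The genes and lists were chosen with earlier results of these data known. Total RNA of 5 libraries was sequenced. The authors used Partek and hg38, per the submitters' processing notes, while aligner, annotation, strand, filters and scaling are not given there. The table the authors deposited holds 1 normalized signal per gene and library (a least squares mean, here the level), and their own ratio and p-value columns, of which only p-values and FDR are quoted. Columns that repeat a library (7) were identical to those used.

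Ratios were computed as log2(level + 1), for genes whose level reached 1 in one of the compared libraries. The value of 1 read came from 28 short single-exon RNA genes (20 for bortezomib). Their level times RefSeq length lay within 0.1 of a whole multiple of 0.5 read for at least 27 of 28 genes in 4 libraries and 19 of 20 for bortezomib. No test was run. A listed gene is not reported here and was left out of its list. The counting code was tried on simulated data with changes larger than 2-fold and a pseudocount far below 1. That trial does not show how genes at low levels, such as TIPARP, are counted with the settings used here. Named genes are the 3 genes, the 5 nearest in pattern, and the 3 on each side of CYP1B1 in the order of ratios to mock. From each list at most the 3 highest and 3 lowest are named, and always ARNT, PTGES3, CYP1A1, AHRR and NQO1. The markers of the line are named too. Alternatives were pseudocounts of 0.5 and 5, median-of-ratios scaling, equal summed coding levels and 2 filters on low levels. No pseudocount and the shortest transcript were added after seeing the data. Software: matplotlib 3.10.9, scipy 1.17.1, pandas 2.3.3, numpy 2.4.6, Python 3.11.15.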

Additional observations from a re-analysis of the deposited data

How the results depend on the processing

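With 1 library per condition, only counting error could be estimated. Depth limits TIPARP and AHR most: their differences between LU-102 and mock were within it. No paired analysis was possible because the labels give no replicate numbers and each condition has 1 library. With a pseudocount of 5, CYP1B1 was at -0.69 with CGI-1746 and -0.74 with the combination against mock, and TIPARP at -0.34 with bortezomib. The number of the 3 genes counted as lower was then 0 in these comparisons in place of 1. It was also 0 with CGI-1746 under median-of-ratios scaling and under equal summed coding levels, and 0 with bortezomib under both scalings and with a level of at least 5, which leaves only CYP1B1 compared. Against mock, bortezomib gave CYP1B1 0.71 and 1.28, AHR 1.18 and 1.68 under median-of-ratios scaling and equal summed coding levels, and TIPARP -0.29 under the latter and -2.09 with no pseudocount. The number counted as higher with bortezomib was 1 and 2 under these scalings, where 4.97% and 10.98% of all genes were. Of the values under alternatives in comparisons against mock, 97 stayed within counting error or within 1.5 times and 19 did not. Between treatments and for additivity these numbers were 132 and 28, and all but 2 of the 28 are from comparisons with bortezomib. Part of the 97 could hardly have moved. The number counted as higher was 0 under every setting with CGI-1746, LU-102 and the combination. The allowed shift for LU-102 against mock, 0.38 for TIPARP and 0.27 for AHR, was wider than the values of -0.20 and -0.17. No pseudocount and the assumed transcript were chosen after seeing the data.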
